A study of Mus musculus with 62 samples.

Results

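Elastic fibers let a tissue recoil after it is stretched, and the diaphragm is stretched with every breath. The 10 genes described here encode the core of these fibers, namely elastin and the fibrillins, together with the microfibril-associated proteins, fibulin, emilin and crosslinking enzymes that assemble them. They were a named list of 10 genes, all found among the 47643 genes of the expression table, and the list was drawn up because Mfap4 was among the genes with the largest falls in cachectic mice at 8 weeks. For this reason the values of cachectic against control mice at 8 weeks, and every 8-week cachectic value of Mfap4, are given below as a description with no test. All gene lists used here were chosen with earlier results of these data known, and the remaining p-values do not account for this choice.

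The data were RNA-seq of diaphragm muscle from 62 female mice, each given with an age of 2 months whatever its week. The methods give this age for the mice as purchased, before injection, so it is not the age at sampling. CAC mice had been injected with cachectic melanoma cells, NCAC mice with non-cachectic melanoma cells, and Con mice were mock injected. Diaphragms were taken 2, 4, 6 and 8 weeks after injection, with 5 mice in each of the 12 conditions except CAC at 8 weeks, which had 7. Per the methods of the study, each melanoma is a patient-derived xenograft stock grown in the flank, so a difference between CAC and NCAC mice is a difference between these 2 tumors. The tendon was removed before RNA extraction. The labels give the strain as C57BL6/J, whereas the design text and the methods give NCI Ath/nude mice, an athymic strain that accepts human cells and lacks mature T cells.

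In an elastic fiber, secreted elastin monomers are laid onto a scaffold of fibrillin microfibrils. Microfibril-associated glycoproteins coat this scaffold, fibulin-5 brings elastin to it, emilin-1 sits at the interface of elastin and microfibril, and lysyl oxidases covalently crosslink the elastin. The same microfibrils also hold latent TGF-beta in the matrix. In skeletal muscle these fibers run mainly in the connective tissue sheaths and vessel walls, and fibroblasts and smooth muscle cells are their main makers.

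Each value below is in TPM (transcripts per 1000000), a level scaled to gene length and to the total of its library. A gene was tested when it had at least 1 TPM in at least 5 mice, which 13578 genes did. Differences are log2 fold changes of TPM + 1 with their standard error (SE) from limma, fitted over all 62 mice, and a gene was called when its Benjamini-Hochberg adjusted p over all genes tested was below 0.05. Of the 10 genes, 9 were tested and Fbn2 was not.

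Read depth is not recoverable from TPM values. The libraries held 15069 to 19057 genes above 0, and 4 of them stood apart with 15069 to 16389 genes and 54.4% to 61.5% mitochondrial transcripts, against at least 17909 genes and at most 50.1% in the other 58. They were CAC replicates 3 and 4 and NCAC replicate 5 at 2 weeks, and CAC replicate 3 at 8 weeks. Another 4 libraries, Con replicates 2, 4 and 5 at 2 weeks and CAC replicate 5 at 6 weeks, were high in liver transcripts such as albumin. They were picked by a mean log2(TPM + 1) of the liver markers over 8, where the median library had 2.16. Just below this cut were CAC replicate 1 at 2 weeks (7.59), CAC replicate 2 at 8 weeks (7.32) and Con replicate 1 at 4 weeks (6.69), so these too held liver transcripts. All skeletal muscle markers listed were present in the tissue, while the 6 cartilage and bone markers summed to at most 0.222 TPM in any mouse.

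Over all 62 mice Mfap4, a microfibril-associated glycoprotein, had the highest median level with 37.5 TPM. It was followed by Eln (elastin) at 18.7, Loxl1 (lysyl oxidase-like 1) at 14.5, Mfap5 at 11.1, Fbln5 (fibulin-5) at 10.3, Fbn1 (fibrillin-1) at 9.03, Emilin1 at 7.78, Mfap2 at 5.17, Lox (lysyl oxidase) at 4.52 and Fbn2 (fibrillin-2) at 0.0981 TPM. The ranges of neighbours in this order overlapped widely, except that Fbn2 lay below each of the other 9 genes. In the annotation of GRCm38 (GENCODE vM21), all 10 are protein-coding genes. Mfap4 (ENSMUSG00000042436.12) lies on the plus strand of chromosome 11 from 61485431 to 61488900. Loxl1 (ENSMUSG00000032334.10) lies on the minus strand of chromosome 9 from 58287738 to 58313186, Fbn1 (ENSMUSG00000027204.13) on the minus strand of chromosome 2 from 125300594 to 125507993, and Emilin1 (ENSMUSG00000029163.9) on the plus strand of chromosome 5 from 30913402 to 30921277.

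In CAC mice these genes did not move as a block. Mfap4 fell and Lox rose at 6 weeks against both other groups, Loxl1 and Fbn1 were lower than in NCAC mice at 8 weeks, and Lox was higher there. For Eln, Mfap2, Mfap5, Fbln5 and Emilin1, no difference passed the test at any week, although alternative fits given below called Eln, Mfap2, Fbln5 and Emilin1 against Con at 6 weeks. Against Con mice, 2 of the 9 genes tested were called at 6 weeks, 1 higher and 1 lower, where 6.79% of all genes tested were called, 5.62% higher and 1.17% lower. Against NCAC mice, 1 was higher and 1 lower at 6 weeks, where 5.85% of all genes were called, 4.28% higher and 1.57% lower. At 8 weeks 1 of the 8 genes other than Mfap4 was higher and 2 were lower than in NCAC mice, and here 12.9% of all genes were called, 6.75% higher and 6.19% lower. Between CAC and Con mice at 8 weeks, 1 gene was higher and 3 were lower past the threshold, where 14.8% of all genes were called (6.65% higher and 8.12% lower), and nothing is read from this count because the list was chosen on this contrast. The comparisons against Con and NCAC share the same CAC mice. The median log2 fold change of the 9 genes at 6 weeks was 0.38 against Con and 0.03 against NCAC, where all genes tested had 0.17 and 0.14, and at 8 weeks it was -0.25 and -0.21, where all genes tested had -0.09 and -0.08. At 4 weeks none of the 9 was called against Con (0.0221% of all genes) or NCAC mice (0.0295%), with 3 and 2 of them at an unadjusted p below 0.05. At 2 weeks none was called against Con (29.3%) or NCAC mice (0%), with 2 and 0 at an unadjusted p below 0.05, but the count against Con became 4 without CAC replicate 1, 2 without CAC replicate 2 and 1 without CAC replicate 5, where 58.4%, 57% and 46% of all genes were called. That share moved from 0.155% to 58.4% with the mouse left out, so these counts are not read further.

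**Figure D1:**
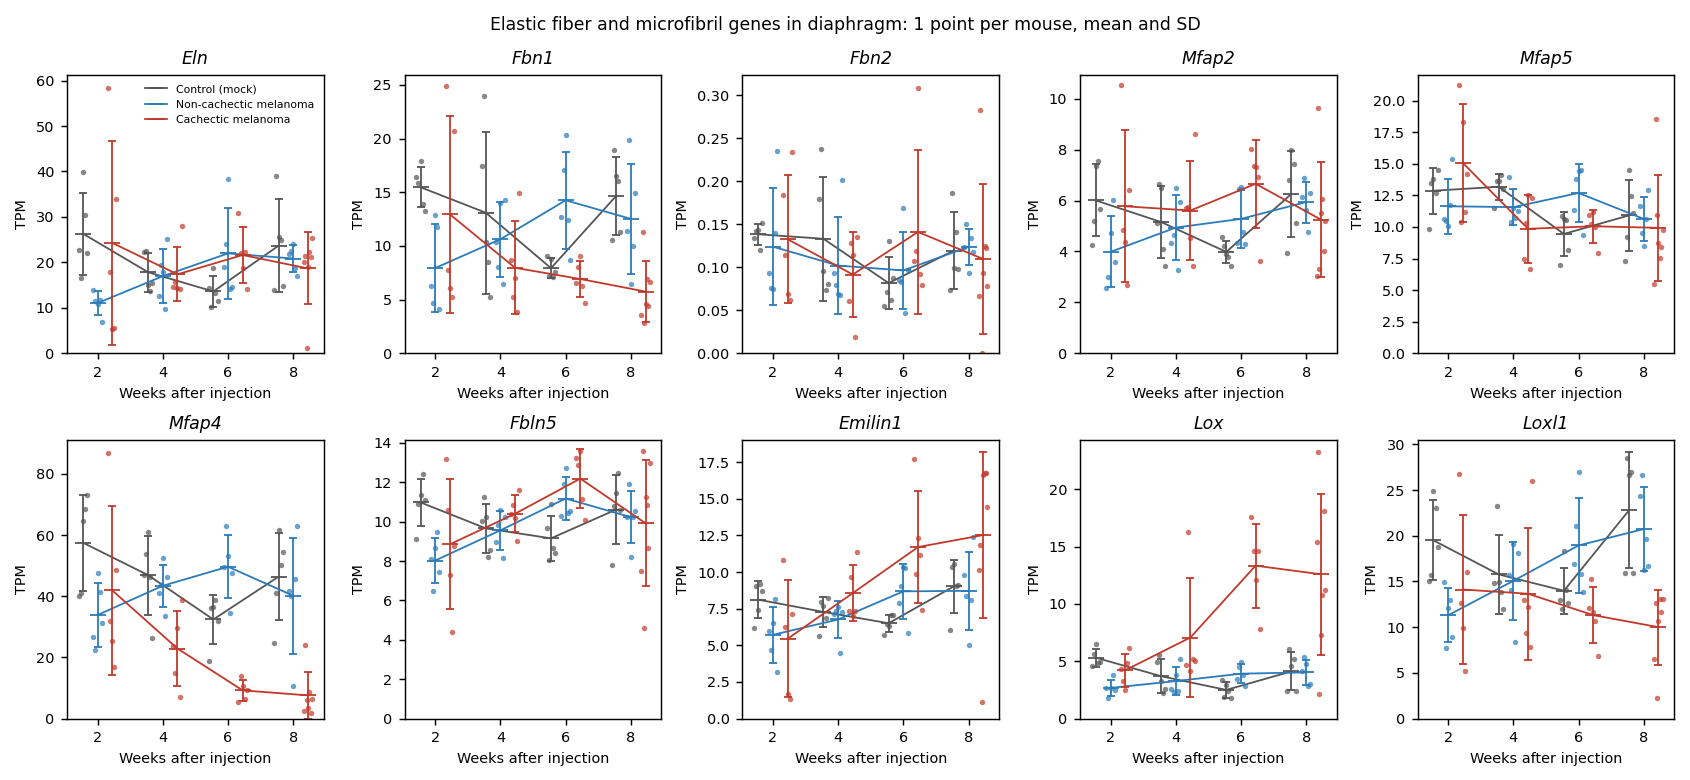
Levels of the 10 genes in TPM (linear axes from 0, a scale of its own for each gene) against weeks after injection; each point is 1 mouse, and bars give the mean and SD of Con (grey), NCAC (blue) and CAC (red) mice. The red points of Mfap4 sit low and those of Lox high at 6 and 8 weeks, while Eln, Fbln5, Mfap2 and Mfap5 overlap between groups.

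Mfap4 had the highest level of these genes in control tissue, and in CAC mice it was lower at 6 weeks. At 4 weeks CAC mice had 23.8, 15, 29.6, 7.14 and 38.9 TPM, Con mice 47.1, 53.8, 60.9, 46.4 and 26.3, and NCAC mice 41.2, 43.8, 52.4, 33.4 and 46.4. Most CAC mice were below the others at this time, but the groups overlapped and the difference did not pass the test (log2 fold change -1.15, SE 0.41, adjusted p = 0.561 against Con by limma with Benjamini-Hochberg adjustment; -1.08, adjusted p = 0.707 against NCAC). At 6 weeks CAC mice had 5.47, 14.0, 10.7, 6.37 and 9.44 TPM, while Con mice had 18.8, 36.3, 36.4, 38.7 and 31.9 and NCAC mice 49.6, 63.1, 53.3, 34.5 and 47.7. Each of the 5 CAC mice was thus below each of the 10 others. Against Con the log2 fold change was -1.74 (SE 0.41, adjusted p = 0.00508, limma), with means of 9.21 ± 3.45 and 32.4 ± 8.00 TPM (SD, n = 5 each). Against NCAC it was -2.35 (SE 0.41, adjusted p = 0.000134, limma), with a mean of 49.7 ± 10.3 TPM (SD, n = 5) in NCAC mice. The Con mean of Mfap4 was 32.4 TPM at this week and 46.4 to 57.5 at the other weeks. Groups that do not overlap, with CAC lower, were found for 2.95% of all genes against Con and 3.3% against NCAC at this week. Leaving out any of the mice compared kept both calls, whereas Dunn's test, the rank test of the study, gave adjusted p = 0.245 and 0.117. Here Dunn's test carries the Benjamini-Hochberg adjustment over all genes tested. The methods of the study give p cutoffs and name no adjustment, so these values do not stand for the study's own criterion.

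At 8 weeks Mfap4 ranged from 1.78 to 24.1 TPM in the 7 CAC mice, with a median of 6.22. Con mice had 24.8, 41.0, 61.5, 50.1 and 54.6 TPM, and NCAC mice had 41.7, 40.0, 10.6, 45.5 and 63.0. All 7 CAC mice were below every Con mouse, as for 3.82% of all genes, and 6 of 7 were below every NCAC mouse, the exceptions being CAC replicate 2 with 24.1 and NCAC replicate 3 with 10.6 TPM. The log2 fold change was -2.78 (SE 0.38) against Con and -2.45 (SE 0.38) against NCAC, and -1.66 (SE 0.38) between CAC mice at 8 and 4 weeks. Over the 40 Con and NCAC mice of all weeks Mfap4 was never below 10.6 TPM, and 9 of the 12 CAC mice at 6 and 8 weeks were. The share of all genes with such a count was not computed, and the list was chosen on the 8-week fall, so nothing is read from it.

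For the other microfibril-associated genes no difference passed the test. Mfap5, which like Mfap2 codes for a microfibril-associated glycoprotein that binds fibrillin, had 7.32 to 14.5 TPM in Con, 8.48 to 12.9 in NCAC and 5.48 to 18.6 in CAC mice at 8 weeks, with medians of 11.1, 10.6 and 8.77. The log2 fold change against NCAC was -0.15 (95% interval -0.51 to 0.20). Mfap2 had 3.95 to 7.99, 4.75 to 6.89 and 3.03 to 9.64 TPM in Con, NCAC and CAC mice at 8 weeks, and its log2 fold change against NCAC was -0.21 (95% interval -0.65 to 0.22). At 6 weeks Mfap2 was 8.03, 7.38, 7.32, 6.94 and 3.63 TPM in CAC mice, 3.44 to 4.58 in Con mice and 4.31 to 6.55 in NCAC mice. The Con mean was 3.98 TPM at this week and 5.16 to 6.27 at the other weeks. Thus 4 of 5 CAC mice were above all Con and NCAC mice of this week, and 1 was below all NCAC mice. The log2 fold change against Con of 0.59 (SE 0.23) did not pass the test (adjusted p = 0.123, limma). Without CAC replicate 5, the mouse with 3.63 TPM and the one high in liver transcripts, it was 0.76 with adjusted p = 0.0382. Mfap2 was also called with a fit on the 2 groups alone (adjusted p = 0.0225) and with array quality weights (0.000894), which called 29.7% and 48.4% of all genes in this comparison, against 6.79% with the fit used here.

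The distance between Mfap4 and Mfap5 was also read within each library, and it showed in most CAC libraries at 6 and 8 weeks. The ratio of Mfap4 to Mfap5 TPM does not depend on how libraries are scaled, and it was chosen after the values were seen, so it is given with no test. At 6 weeks it was 0.499 to 1.37 in CAC mice, 2.68 to 3.89 in Con mice and 2.38 to 5.12 in NCAC mice. At 8 weeks it was 0.211 to 1.30 in CAC, 3.39 to 4.90 in Con and 1.25 to 4.89 in NCAC mice, so that only NCAC replicate 3 came into the range of the CAC mice. In 10 of the 12 CAC mice at 6 and 8 weeks the ratio was below the lowest of the 40 Con and NCAC mice, which was 1.25. How often ratios of other genes do this was not computed.

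Among the genes of the core proteins, Fbn1 was lower in CAC than NCAC mice at 8 weeks and Eln was not called. Fbn1 at 8 weeks had a median of 4.58 TPM in CAC mice, with a range of 2.86 to 11.3. NCAC mice had 11.4, 19.9, 6.42, 9.98 and 14.9 TPM, and Con mice had 10.5, 19.0, 16.5, 16.0 and 11.3. The CAC and NCAC ranges overlapped, as CAC replicate 2 had 11.3 and NCAC replicate 3 had 6.42 TPM. Fbn1 was lower in CAC than in NCAC mice, with a log2 fold change of -1.02 (SE 0.32, adjusted p = 0.0239, limma) and means of 5.74 ± 2.85 (SD, n = 7) and 12.5 ± 5.12 TPM (SD, n = 5). The fold change against Con, a description, was -1.28 (SE 0.32). The call against NCAC was lost without NCAC replicate 2 (adjusted p = 0.120), NCAC replicate 5 (0.0706) or CAC replicate 1 (0.0567), as well as with a fit on the 2 groups alone (0.112) or Dunn's test (0.115).

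At 6 weeks CAC mice had 6.50, 8.06, 9.05, 6.30 and 4.66 TPM of Fbn1, against 12.7, 17.1, 20.4, 12.5 and 8.66 in NCAC mice. The Con mean was 7.92 TPM at this week and 13.1 to 15.5 at the other weeks. The Con mice of this week had 7.07 to 9.02 TPM, with 3 of the 5 CAC mice below all of them and 1 above, and the log2 fold change was -0.20 (95% interval -0.88 to 0.49) against them. Against NCAC it was -0.92 (SE 0.34) and did not pass the test (adjusted p = 0.104, limma), but it was called with median-ratio scaling (adjusted p = 0.0202) and with TPM rescaled without mitochondrial genes (0.0335).

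For Eln no difference passed the test. At 8 weeks 6 of the 7 CAC mice had 19.0 to 25.3 TPM and CAC replicate 3 had 1.25, the lowest of all 62 mice. Con mice had 14.0 to 39.1 TPM and NCAC mice 17.1 to 24.1. The log2 fold change against NCAC was -0.42 (95% interval -1.23 to 0.39), and 0.05 without CAC replicate 3. At 6 weeks Eln was 30.8, 22.0, 18.7, 22.4 and 14.2 TPM in CAC mice, 10.2 to 18.8 in Con mice and 14.1 to 38.3 in NCAC mice. The Con mean was 13.6 TPM at this week and 17.8 to 26.3 at the other weeks. The log2 fold change at 6 weeks was 0.62 (SE 0.44, adjusted p = 0.455, limma) against Con and 0.03 against NCAC. Against Con it was called with a fit on the 2 groups alone (adjusted p = 0.0364) and with array quality weights (0.00555), the fits that called 29.7% and 48.4% of all genes. Fbn2, a fibrillin made mostly before birth, was at most 0.308 TPM in any mouse and 0 in CAC replicate 3 at 8 weeks, too low for a comparison.

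Fbln5 and Emilin1 join elastin to microfibrils, and neither passed the test in any comparison. At 6 weeks Fbln5 was 13.3, 12.9, 13.6, 11.1 and 10.1 TPM in CAC mice, 8.06 to 10.9 in Con and 10.3 to 12.7 in NCAC mice. Thus 4 of 5 CAC mice were above all Con mice, and the log2 fold change of 0.38 (SE 0.17) did not pass the test (adjusted p = 0.191, limma). The fit on the 2 groups alone (adjusted p = 0.0190) and array quality weights (7.25e-05) called it. Fbln5 at 8 weeks had 4.61 to 13.6 TPM in CAC, 8.21 to 11.9 in NCAC and 7.78 to 12.5 in Con mice, with medians of 10.9, 10.2 and 10.8. Its log2 fold change against NCAC was -0.09 (95% interval -0.41 to 0.22), the narrowest interval of the 9 genes. Emilin1 at 6 weeks was 17.7, 9.86, 12.3, 11.2 and 7.42 TPM in CAC mice and 5.69, 6.43, 6.32, 7.04 and 7.05 TPM in Con mice. NCAC mice had 5.83 to 10.4 TPM, and 3 of the 5 CAC mice were above them all. The Con mean was 6.51 TPM at this week and 7.28 to 9.02 at the other weeks. All 5 CAC mice were above all Con mice of this week, as for 15.9% of all genes. The log2 fold change against Con of 0.71 (SE 0.34) did not pass the test (adjusted p = 0.228, limma). It too was called with the fit on the 2 groups alone (adjusted p = 0.0130) and with array quality weights (0.000102), where 29.7% and 48.4% of all genes were.

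At 8 weeks Emilin1 split the CAC mice. In 6 of them it was 10.2 to 16.8 TPM, and in CAC replicate 3 it was 1.16, the lowest of all 62 mice. NCAC mice had 9.77, 8.34, 5.02, 8.11 and 12.4 TPM, and Con mice had 6.02 to 10.6. The log2 fold change against NCAC was 0.29 (SE 0.32, adjusted p = 0.633, limma) with all mice, and 0.69 with adjusted p = 0.0436 without CAC replicate 3. That library was 1 of the 4 with the fewest genes and highest mitochondrial share, and it was also the lowest of all mice for Eln, Fbn1, Fbn2 and Loxl1. Its depth and quality as a cause of this were not tested.

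The crosslinking enzymes moved in opposite directions. Lox at 6 weeks was 17.6, 14.6, 12.1, 14.6 and 7.83 TPM in CAC mice, 3.39, 1.90, 2.96, 2.41 and 1.82 in Con mice and 3.45, 4.48, 4.95, 3.80 and 2.88 in NCAC mice. The lowest CAC mouse was above the highest of the 10 others, as for 15.9% of all genes against Con and 13.6% against NCAC. Lox rose against Con with a log2 fold change of 2.01 (SE 0.31, adjusted p = 1.53e-05, limma), from 2.50 ± 0.676 to 13.3 ± 3.65 TPM (SD, n = 5 each). The Con mean was 3.69 to 5.31 TPM at the other weeks. Against NCAC mice, which had 3.91 ± 0.821 TPM (SD, n = 5), the log2 fold change was 1.52 (SE 0.31, adjusted p = 0.00136, limma). Both calls were kept whichever mouse was left out, while Dunn's test gave adjusted p = 0.0687 and 0.130.

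Lox was already high in 1 CAC mouse at 4 weeks, in which it reached 16.3 TPM. The other CAC mice at 4 weeks had 4.17 to 5.18, against 2.22 to 5.53 in Con and 2.28 to 5.20 in NCAC mice, and the log2 fold change against NCAC was 0.79 (SE 0.31, adjusted p = 0.764, limma). At 8 weeks CAC mice had 15.4, 23.2, 2.11, 7.31, 10.8, 18.1 and 11.2 TPM, while NCAC mice had 4.14, 5.33, 4.78, 2.82 and 3.05. Con mice had 2.36, 6.06, 4.59, 5.15 and 2.40 TPM. Thus 6 of 7 CAC mice were above all NCAC and Con mice, and CAC replicate 3 was below them all. Lox was higher than in NCAC mice with a log2 fold change of 1.23 (SE 0.29, adjusted p = 0.00208, limma), and this call held whichever of the 12 mice was left out. It was lost with a fit on the 2 groups alone (adjusted p = 0.159) and with Dunn's test (0.238).

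Loxl1, an enzyme needed for the upkeep of elastic fibers, was lower. At 8 weeks CAC mice had 6.51, 12.6, 2.30, 10.7, 13.1, 11.6 and 13.1 TPM. NCAC mice had 24.4, 26.6, 16.3, 19.7 and 16.7 TPM, and Con mice had 15.9, 28.5, 26.7, 27.0 and 15.9. All 7 CAC mice were below all NCAC mice, as for 2.42% of all genes. The log2 fold change against NCAC was -1.10 (SE 0.28, adjusted p = 0.00519, limma), with means of 9.996 ± 4.10 (SD, n = 7) and 20.7 ± 4.61 TPM (SD, n = 5), a call kept without any 1 of the 12 mice. A fit on the 2 groups alone gave adjusted p = 0.121. Against Con, a description, the log2 fold change was -1.21 (SE 0.28).

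At 6 weeks Loxl1 was 12.1, 15.3, 11.7, 10.6 and 6.85 TPM in CAC mice, 16.9, 21.1, 27.0, 15.8 and 13.9 in NCAC mice and 12 to 18.3 in Con mice. The log2 fold change against NCAC was -0.70 (SE 0.31) and did not pass the test (adjusted p = 0.196, limma), but it was called with median-ratio scaling (adjusted p = 0.0128) and with TPM rescaled without mitochondrial genes (0.0464).

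**Figure D2:**
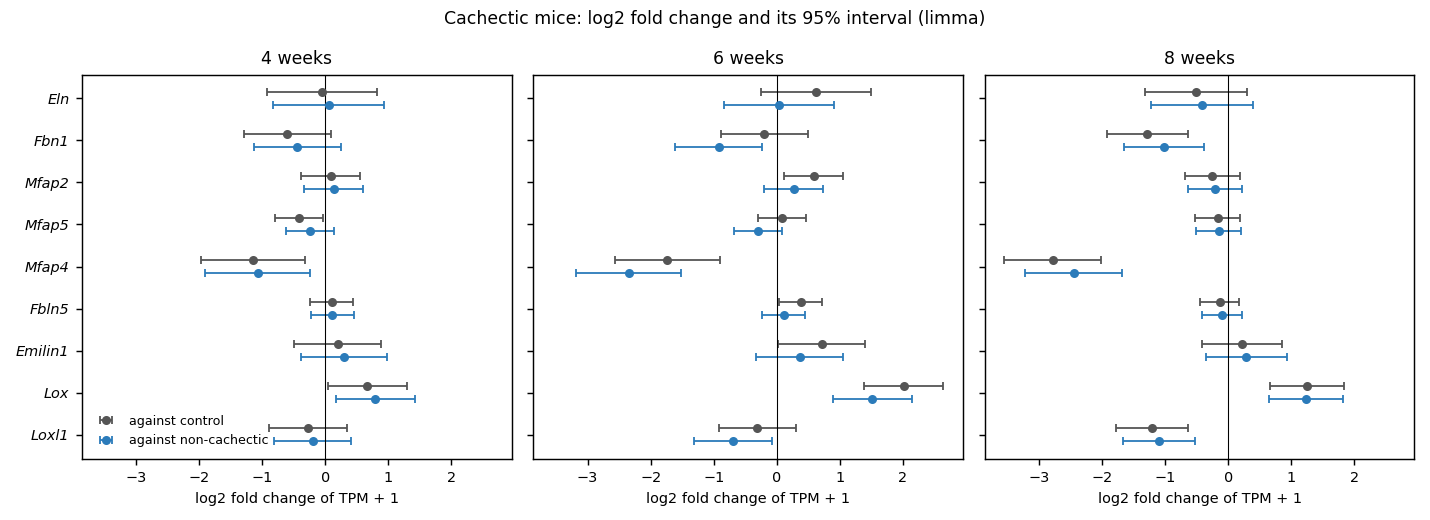
Log2 fold change of TPM + 1 (horizontal axis) of the 9 genes tested, in CAC mice against Con (grey) and NCAC mice (blue) at 4, 6 and 8 weeks; points are limma estimates and bars their 95% intervals before adjustment. At 6 weeks Mfap4 lies at -1.74 and -2.35 and Lox at 2.01 and 1.52, and at 8 weeks Fbn1 and Loxl1 lie to the left with Mfap4.

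The balance of Lox and Loxl1 separated late CAC mice more cleanly than either gene. This ratio was also chosen after the values were seen and carries no test. Lox was already seen to be higher and Loxl1 lower in these mice, so a wider gap in their ratio is no separate result. Ratios of Mfap4 to Eln and of Emilin1 to Fbn1 were computed too. In both, CAC mice lay apart at 6 weeks but overlapped the others at 8 weeks. There CAC mice had 0.0837 to 4.97 and 0.405 to 3.84. Con mice had 1.05 to 3.71 and 0.546 to 0.811, and NCAC mice 0.439 to 3.70 and 0.419 to 0.857. At 8 weeks Lox over Loxl1 was 0.684 to 2.36 in CAC mice, 0.149 to 0.212 in Con mice and 0.144 to 0.294 in NCAC mice. At 6 weeks it was 0.953 to 1.45, 0.144 to 0.262 and 0.183 to 0.240 in the same order. All 12 CAC mice at 6 and 8 weeks, CAC replicate 3 included, were above all 40 Con and NCAC mice of any week, whose highest ratio was 0.356. Among the 10 CAC mice at 2 and 4 weeks, 5 were above that value. How often ratios of other genes separate mice in this way was not computed. The ratio at 4 weeks had a median of 0.362 in CAC, 0.219 in Con and 0.199 in NCAC mice.

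**Figure D3:**
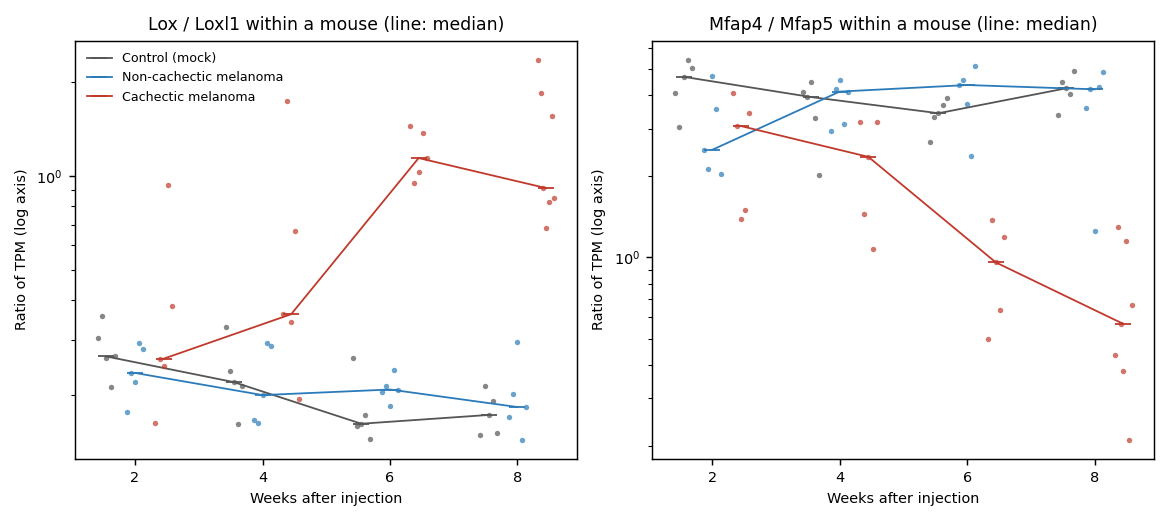
Ratio of Lox to Loxl1 TPM (left) and of Mfap4 to Mfap5 TPM (right) within each mouse, on log axes, against weeks after injection; points are mice and lines join the medians of Con (grey), NCAC (blue) and CAC (red). At 6 and 8 weeks the Lox to Loxl1 ratio of every CAC mouse is at least 0.684 and that of every other mouse at most 0.294.

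Between NCAC and Con mice none of the 9 genes was called at 2 (4.43% of all genes), 4, 6 or 8 weeks (0% each), and 6, 0, 2 and 0 of them had an unadjusted p below 0.05. The log2 fold changes ranged from -0.33 to 0.01 at 8 weeks, from 0.27 to 0.73 at 6 weeks, from -0.18 to -0.01 at 4 weeks and from -1.15 to -0.14 at 2 weeks. Thus all 9 genes were lower in NCAC than Con mice at 2 weeks, when the median of all genes tested was also lower, by a log2 fold change of -0.18. None of the 9 genes was called between 8 and 4 weeks in Con or NCAC mice (0% of all genes each, and 0 of the 9 at an unadjusted p below 0.05, where 120 and 168 of all genes were).

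Within CAC mice, none of the 8 genes other than Mfap4 was called between 8 and 4 weeks (2.07% of all genes) or 8 and 6 weeks (0%), and none of the 9 between 6 and 4 weeks (0.0957%). At an unadjusted p below 0.05 there were 1, 1 and 2 genes. Between 8 and 4 weeks Lox was called without CAC replicate 2 at 4 weeks or CAC replicate 3 at 8 weeks, where 3.68% and 4.7% of all genes were. Lox had a mean of 7.07 ± 5.15 at 4 weeks, 13.3 ± 3.65 at 6 weeks and 12.6 ± 7.00 TPM at 8 weeks (SD, n = 5, 5 and 7), but the log2 fold change of 0.96 (SE 0.31) from 4 to 6 weeks gave adjusted p = 0.323 (limma). Whether the difference of CAC and NCAC mice itself grew was tested as an interaction. None of the 8 genes other than Mfap4 was called for 8 against 4 weeks or 8 against 6 weeks (0% of all genes each), with 1 and 0 at an unadjusted p below 0.05, where 791 and 345 of all genes were. For Loxl1 the difference was -0.90 (95% interval -1.73 to -0.06) further from 4 to 8 weeks (adjusted p = 0.830, limma), and for Lox it was -0.29 (95% interval -1.15 to 0.57) from 6 to 8 weeks.

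Of 40 other genes of elastic fiber assembly and turnover, 39 were in the table and 32 were tested. Between CAC and NCAC mice at 8 weeks 1 was higher and 4 were lower, with a median log2 fold change of -0.24, against -0.08 over all genes tested and 12.9% of all genes called. Among crosslinking enzymes and their activators, 1 of 6 was called. This was Loxl2, a lysyl oxidase that crosslinks collagen IV, at 1.51 to 6.52 TPM in CAC and 5.93 to 15.7 in NCAC mice, and it was lower with a log2 fold change of -1.33 (SE 0.32, adjusted p = 0.00224, limma). Loxl3 and Loxl4, the other members of this family, had log2 fold changes of -0.28 and -0.14 that did not pass the test. So of 5 lysyl oxidase genes, Lox was higher, Loxl1 and Loxl2 were lower and the other two were not called.

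Among assembly proteins and microfibril regulators, 1 of 13 was called. Ltbp2, a latent TGF-beta binding protein that attaches to fibrillin-1, was 0.12 to 2.43 TPM in CAC and 1.69 to 3.85 in NCAC mice and was lower with a log2 fold change of -1.05 (SE 0.30, adjusted p = 0.0109, limma). Among integrin receptors 1 of 7 was called, Itgb6, whose integrin activates latent TGF-beta. It was 2.20 to 9.84 TPM in CAC and 6.06 to 17 in NCAC mice, with a log2 fold change of -0.73 (SE 0.24, adjusted p = 0.0349, limma).

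Proteases that can cut elastin went both ways, with 2 of 6 called. Ctsl, the lysosomal protease cathepsin L, was 226 to 638 TPM in CAC and 148 to 186 in NCAC mice, and it was higher with a log2 fold change of 1.02 (SE 0.19, adjusted p = 0.000144, limma). Mmp9, a secreted gelatinase, was 0.41 to 1.22 TPM in CAC and 1.00 to 3.93 in NCAC mice, with a log2 fold change of -0.83 (SE 0.22, adjusted p = 0.00731, limma). At 6 weeks Ctsl was the only one of the 32 genes called against NCAC mice, with a log2 fold change of 0.94 (SE 0.21, adjusted p = 0.00311, limma), where 5.85% of all genes were called. The 8-week calls of these genes depended on the fit. A fit on the 2 groups alone called Loxl2 (adjusted p = 0.0367) and lost the other 4, where 2.68% of all genes were called, and Dunn's test called Ctsl (0.0373) and lost the other 4, where 4.47% were. Without NCAC replicate 1, Itgb6 and Mmp9 were lost (adjusted p = 0.0550 and 0.0554), and the call of Itgb6 was lost without any 1 of 7 of the 12 mice (NCAC replicates 1, 2, 4 and 5 and CAC replicates 1, 2 and 6). Itgb6 was also lost with median-ratio scaling (adjusted p = 0.113, limma), with no filter on low values (0.0515) and with the replicate block (0.114).

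**Figure D4:**
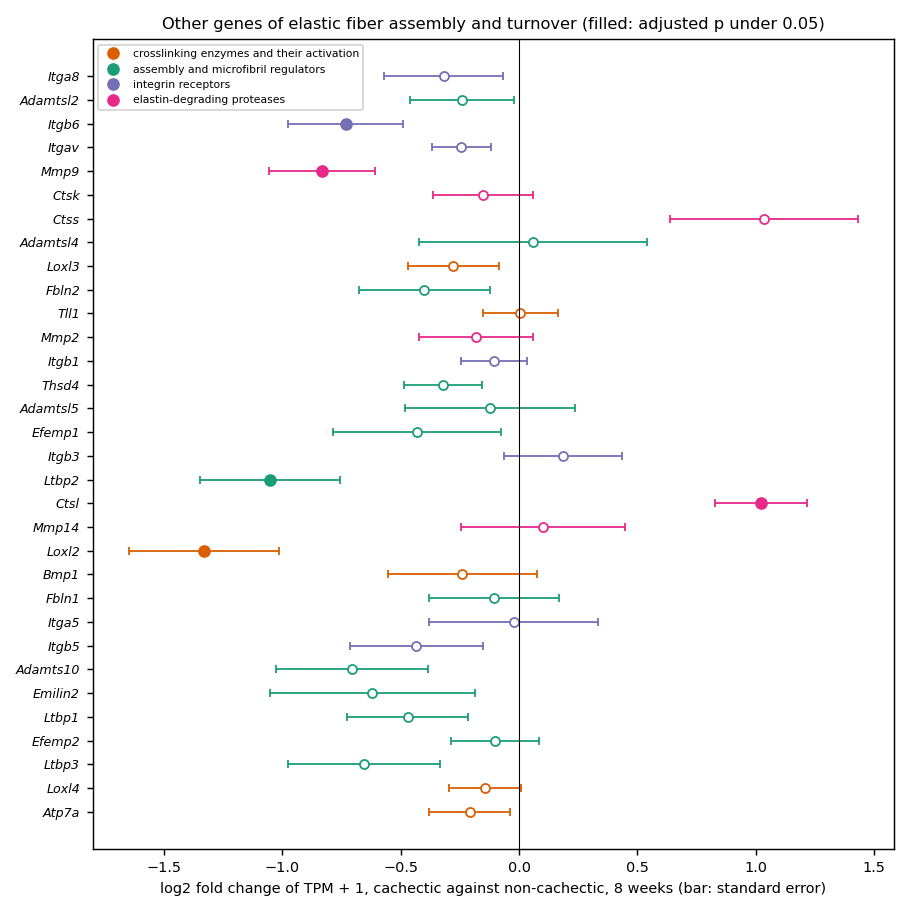
Log2 fold change of TPM + 1 between CAC and NCAC mice at 8 weeks (horizontal axis, bars are the SE) for the 32 other genes tested, coloured by role; filled points have an adjusted p below 0.05. Ctsl is the filled point on the right at 1.02, and Loxl2, Ltbp2, Mmp9 and Itgb6 are the 4 filled points on the left.

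Levels of the 9 genes went together from mouse to mouse. Within conditions, after the mean of each condition was taken out, all 36 pairs had a Pearson correlation of log2 levels above 0 over the 62 mice, with a median of 0.57 and a lowest value of 0.04 for Mfap4 and Lox. Over the 62 mice as they are, 30 of 36 pairs were above 0. Fbn1 and Loxl1 had a correlation of 0.84, Lox and Mfap4 of -0.56 and Lox and Loxl1 of -0.02. These are descriptions, and they share the depth and tissue makeup of each library.

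The genes most like the mean of the 9 over all 62 mice were Adamts2, which trims procollagen (Pearson r = 0.92), Mmp2, a gelatinase (0.89), Vasn (0.87), Sec24d, a coat protein for secretory transport (0.87), and Mrgprf (0.86). The genes most like Mfap4 were Col3a1, a fibrillar collagen (r = 0.92), C1qtnf2 (0.91), Pthlh, a parathyroid hormone-like peptide (0.90), Col6a3, a chain of collagen VI (0.89), and Islr (0.89). At 8 weeks Col3a1 had a median of 27.1 TPM in CAC mice, 126 in NCAC and 126 in Con mice.

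Markers of the cell types that make or surround these fibers were read beside the contrasts of CAC and NCAC mice at 8 weeks and of CAC mice with both groups at 6 weeks. Of all genes tested, 6.75% were called higher and 6.19% lower in CAC than NCAC mice at 8 weeks. In lists of 5 to 10 markers, 1 call is not read as a change of the list. At 8 weeks, of 10 fibroblast markers, 3 were lower and 0 higher in CAC than NCAC mice at 8 weeks, all of them collagens (Col1a1, Col1a2 and Col3a1), with a median log2 fold change of -0.37 over the list. The mean log2 level of the list was 5.52 ± 0.66 in CAC (SD, n = 7) and 6.20 ± 0.44 in NCAC mice (SD, n = 5). The summed level of the fibroblast list was 833 to 2106 TPM in CAC mice, 937 to 1382 in NCAC and 785 to 1527 in Con mice, so these ranges overlapped. Of 6 smooth muscle markers 1 was lower (Smtn) and the sum was 99.1 to 569 TPM in CAC and 171 to 281 in NCAC mice, and of 5 tendon markers tested 1 was lower (Kera), with sums of 30.1 to 191 and 72.3 to 152 TPM.

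Of 6 macrophage markers 3 were higher, namely Mrc1, C1qa and C1qb, where 6.75% of all genes were. Their list had sums of 124 to 359 TPM in CAC and 85.4 to 220 in NCAC mice. Endothelial and mesothelial lists had 1 of 6 lower each (Kdr and Lrrn4), the skeletal muscle list had 1 of 10 higher (Tnni2) and 1 lower (Mb), and the adipocyte and liver lists had none called. The 6 melanocyte markers summed to 0.451 to 3.23 TPM in CAC and 1.49 to 2.81 in NCAC mice at 8 weeks.

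At 6 weeks, when Mfap4 and Lox were called, the fibroblast list had 1 of 10 higher against both groups, the proteoglycan gene Dcn, with log2 fold changes of 0.71 (adjusted p = 0.00708, limma) against Con and 0.73 (adjusted p = 0.00619) against NCAC mice. Col3a1 was lower against NCAC mice, and the list had medians of 0.04 and -0.32. Of all genes tested, 5.62% were called higher and 1.17% lower against Con at this week, and 4.28% and 1.57% against NCAC. The fibroblast list is described further here. The sum of the fibroblast list was 1119 to 1654 TPM in CAC, 963 to 1400 in Con and 1132 to 1563 in NCAC mice. Of 6 macrophage markers 2 were higher against Con (Mrc1 and C1qb) and 1 against NCAC (Mrc1), with sums of 136 to 248 TPM in CAC, 90.6 to 145 in Con and 92.1 to 257 in NCAC mice. Of 10 skeletal muscle markers 3 were higher against Con (Des, Tnni2 and Tnnt3) and 2 against NCAC (Des and Tnnt3), and Mb was lower against both. Of 5 tendon markers Kera was lower against both groups and Scx higher against NCAC, with sums of 80.3 to 156 TPM in CAC, 96.2 to 161 in Con and 92.5 to 174 in NCAC mice. The smooth muscle, endothelial, mesothelial, adipocyte and liver lists had none called. The smooth muscle sum was 165 to 250 TPM in CAC, 132 to 157 in Con and 139 to 211 in NCAC mice. Every CAC mouse was thus above every Con mouse, as was found for 15.9% of single genes, and nothing is read from this. The part of these cell types in the results above was not tested. In whole muscle, fewer cells of a type and less RNA per cell cannot be told apart.

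Annotated genes on the opposite strand overlap 5 of the 10 genes, and the sources differ on whether the library kit kept the strand. Mapk7, which overlaps Mfap4, had a median of 3.40 TPM and at most 5.13 in any mouse, and Gm9913, which overlaps Fbn1, had at most 0.120 TPM. Gm26507, which overlaps Fbn2, had at most 0.088 TPM. The genes opposite Eln and Lox (Gm30003 and AC161119.1) had no entry by these names in the expression table. Reads from them cannot be told apart from those of Eln and Lox if strand was not kept.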

How the data were processed

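The study reported RNA-seq of 62 mouse diaphragms. Per the methods of the study, RNA was extracted with Trizol, libraries were made with an Illumina TruSeq kit (a stranded mRNA kit per the labels, another version per the methods) and sequenced on a NovaSeq as 100-bp paired reads, which were trimmed, filtered and aligned to GRCm38, named mm10 in the submitters' processing notes, in the CLC program. The file deposited by the authors holds 1 TPM value for each gene in each mouse, and these sum to 1000000 in each library, so total counts and depth are unknown and no counting interval was given. No columns were left unmapped.

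From these, log2(TPM + 1) was computed, genes reaching 1 TPM in 5 or more mice were tested, and limma (version 3.58.1, R 4.3.3) fitted 12 condition means with a mean-dependent prior spread and Benjamini-Hochberg adjustment. The mice are separate animals per the labels. The members and all gene lists were chosen with earlier results of these data known. Named genes were all members, the pathway genes called between CAC and NCAC mice at 8 weeks (at most 10), and the 5 genes most correlated with the members' mean and with Mfap4. Alternatives were another pseudocount, no filter, other scalings, a fit on the groups compared, Dunn's test, array quality weights, the replicate block and leaving out mice or libraries.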

Additional observations from a re-analysis of the deposited data

Results flagged for a closer look

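In each condition the highest and lowest mouse was checked for a gap to the nearest other mouse that was large for the range of its group. Of 120 groups tested, 12 held such a mouse, where chance gives about 1 in 20. At 4 weeks Lox was 16.3 TPM in CAC replicate 2, the next mouse having 5.18. CAC replicate 5 at 4 weeks was high for Eln at 27.9 (next 15.7) and for Loxl1 at 26.0 (next 13). Con replicate 2 at 4 weeks was high for Loxl1 at 23.3, NCAC replicate 4 was low for Emilin1 at 4.51, and NCAC replicate 5 was high for Fbn2 at 0.201. At 6 weeks CAC replicate 5 was low for Mfap2 at 3.63 and CAC replicate 3 was high for Fbn2 at 0.308. At 8 weeks CAC replicate 3 was low for Eln at 1.25 and Emilin1 at 1.16, and CAC replicate 2 was high for Mfap4 at 24.1 and Mfap5 at 18.6 TPM.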

How the results depend on the processing

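Leaving out any mouse, another pseudocount and no filter on low values moved the count of the 9 genes called between CAC and Con or CAC and NCAC mice at 6 or 8 weeks by at most 1. Other choices did, and their cause was not tested. Counts that use 8-week CAC mice include Mfap4, whose values there are a description, and the share of all genes called by the same fit stands in parentheses. A fit on the groups compared alone called 6 genes against Con at 6 weeks (29.7%) and 2 at 8 weeks (4.07%), 4 against NCAC at 6 weeks (24.3%) and 1 at 8 weeks (2.68%), 0 between CAC mice at 8 and 4 weeks (0.00736%), and 1 of the 32 other genes. Array quality weights, whose iterations stopped before converging, called 1 (7.87%) and 6 genes (48.4%) for CAC against Con at 4 and 6 weeks and 5 (40.6%) against NCAC at 6 weeks. They called 4 (13%) and 1 (0.295%) for NCAC against Con at 2 and 6 weeks, 1 (2.63%), 3 (23.1%) and 3 (25.9%) for Con at 8 against 4 weeks and CAC at 8 and at 6 against 4 weeks, 1 (7.34%) for the change in the CAC to NCAC difference from 4 to 8 weeks, and 9 of the 32 (40.9%). Dunn's test called 0 at 6 weeks in both comparisons (0% each), 1 against NCAC at 8 weeks (4.47%), 0 between CAC mice at 8 and 4 weeks (0%), and 1 of the 32. Against NCAC at 6 weeks, median-ratio scaling (7.67%) and TPM rescaled without mitochondrial genes (6.66%) called 4 each, and at 8 weeks the latter called 8 of the 32 (22.8%). Without the 4 libraries with the fewest genes, 1 gene was called between NCAC and Con mice at 2 weeks (5%) and 3 between CAC mice at 8 and 4 weeks (12.3%).

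Some log2 fold changes that did not pass the test changed sign. At 2 weeks, without the 4 libraries, Eln against Con went from -0.58 to 0.38, Fbn1 against Con from -0.49 to 0.056 and Emilin1 against NCAC from -0.28 to 0.29. Also at 2 weeks, Fbln5 and Lox against Con went from -0.35 to 0.11 and from -0.31 to 0.11 with median-ratio scaling, and Fbn1 against NCAC from 0.51 to -0.080 with array weights. With median-ratio scaling and with TPM rescaled, Mfap5 against Con at 6 weeks became -0.084 and -0.065, Eln against NCAC at 6 weeks -0.12 and -0.12, and Fbln5 -0.031 and -0.035. With median-ratio scaling, array weights and without the 4 libraries, Fbln5 at 8 weeks became 0.0017, 0.032 and 0.012 against Con and 0.0198, 0.14 and 0.055 against NCAC. With array weights and without the 4 libraries, Eln against NCAC at 8 weeks became 0.15 and 0.052. Over the mice left out in turn, calls ranged from 0 to 4 (0.155% to 58.4% of all genes) for CAC and 0 to 1 for NCAC against Con at 2 weeks, from 0 to 2 and 0 to 1 for CAC at 8 and at 6 against 4 weeks, and from 3 to 6 of the 32. Eln ranged from -0.23 to 0.031 and Mfap2 from -0.062 to 0.22 against Con at 4 weeks, Mfap5 from -0.0016 to 0.17 against Con at 6 weeks, and Fbln5 from -0.24 to 0.012 against Con at 8 weeks. Against NCAC, Eln ranged from -0.10 to 0.25 at 6 weeks and from -0.54 to 0.052 at 8 weeks, and Fbln5 from -0.17 to 0.055 at 8 weeks.

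With the replicate number as a block, 2 genes were called against Con at 6 weeks and 4 at 8 weeks, and 2 and 4 against NCAC, as without it. Mice with the same number did not deviate together: of 60 pairs within a week 18 had a correlation over 0.1 (range -0.63 to 0.39), so the numbers were not taken as pairs. Without read counts, no limit of detection could be set for Fbn2.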
